A study of Mus musculus with 10 samples.

Results

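The miRNA cluster of the imprinted Dlk1-Dio3 domain was examined as 45 hairpins, from mmu-mir-770 to mmu-mir-410, of the 1136 miRNA hairpins with at least 1 read in these libraries. Members were taken by hairpin name, and the reads that matched the genome and those that did not were added before division by the clean reads of the sample and scaling to 1000000 reads (RPM). Small RNA had been sequenced from mature sperm, taken from the vas deferens and the tail of the epididymis of C57BL/6J fathers (F0), in 5 CD-F0 and 5 HFD-F0 samples. From 4 weeks of age and for 10 weeks, CD-F0 males received the control diet with 10% of kcal from fat and HFD-F0 males the high-fat diet with 42%. No allele or other treatment distinguished the groups, and whether each sample came from 1 mouse or from a pool was not given in the sources used here, so p-values measure the spread between these samples. The comparison asks which small RNAs of sperm differ with the diet of the father.

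Imprinted genes are expressed from the allele of only one parent. In the Dlk1-Dio3 domain the paternal allele expresses the protein-coding genes Dlk1, Rtl1 and Dio3, and the maternal allele expresses the long noncoding RNAs Meg3, Rian and Mirg together with the miRNAs. The differentially methylated region between Dlk1 and Meg3 that controls this is methylated in sperm. miRNAs antisense to Rtl1 pair perfectly with its mRNA and can direct its cleavage, and the cluster is known for its expression in brain and placenta and, for the miR-379 to miR-410 group, for a role in the metabolic adaptation of the newborn.

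All 45 hairpins matched an entry of RefSeq and lie on the plus strand of chromosome 12 (GRCm38.p6), from 109563692 to 109743795, a span of 180.1 kb. In the GENCODE M21 annotation of the same build, Dlk1 lies from 109452823 to 109463336 and Dio3 from 110279068 to 110281097, outside the hairpins on either side. The first 6 hairpins (mmu-mir-770, mmu-mir-673, mmu-mir-493, mmu-mir-337, mmu-mir-540 and mmu-mir-665) lie at and after Meg3 (109541001 to 109571726), and mmu-mir-770 overlaps one of its exons. The next 5 (mmu-mir-431, mmu-mir-433, mmu-mir-127, mmu-mir-434 and mmu-mir-136) lie opposite an exon of Rtl1, which is on the minus strand from 109589193 to 109600330. Introns of Rian (109603940 to 109661716) hold mmu-mir-341 and mmu-mir-370. The other 32 form the miR-379 to miR-410 group over 34.7 kb, from 109709060 to 109743795, where 8 overlap exons and 4 overlap introns of Mirg (109729764 to 109749460). No annotated transcript of these host genes overlapped the remaining hairpins, 25 in all.

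The mature miRNAs of the 7 hairpins on which the results below turn are given here from RefSeq (GRCm38.p6), 5′ to 3′, with the seed, bases 2 to 8, in capitals. The first 4 hairpins held most of the reads, and the last 3 had the smallest p-values between the diets.
mmu-miR-411-5p: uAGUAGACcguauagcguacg
mmu-miR-411-3p: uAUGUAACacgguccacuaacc
mmu-miR-127-5p: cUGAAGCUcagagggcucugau
mmu-miR-127-3p: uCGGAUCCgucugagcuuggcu
mmu-miR-379-5p: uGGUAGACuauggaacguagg
mmu-miR-379-3p: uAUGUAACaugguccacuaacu
mmu-miR-369-5p: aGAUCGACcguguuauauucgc
mmu-miR-369-3p: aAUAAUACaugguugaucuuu
mmu-miR-431-5p: uGUCUUGCaggccgucaugca
mmu-miR-431-3p: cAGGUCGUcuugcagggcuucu
mmu-miR-341-5p: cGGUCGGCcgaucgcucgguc
mmu-miR-341-3p: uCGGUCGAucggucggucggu
mmu-miR-382-5p: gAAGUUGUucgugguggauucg
mmu-miR-382-3p: uCAUUCACggacaacacuuuuu

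RefSeq lists 86 mature sequences for the 45 hairpins, and they carry 83 different seeds. For mmu-mir-376c, mmu-mir-487b, mmu-mir-539 and mmu-mir-485 it lists only 1 each, so seeds shared with unlisted sequences were not counted. Only 3 seeds occurred in a pair of hairpins: AUGUAAC in miR-379-3p and miR-411-3p, GGUUGUC in miR-494-5p and miR-410-5p, and UGGAUAU in miR-376c-5p and miR-376b-5p. The last pair is shown because its sequences differ at 1 of 22 bases, which 1 mismatch in the authors' alignment can bridge.
mmu-miR-376c-5p: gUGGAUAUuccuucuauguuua
mmu-miR-376b-5p: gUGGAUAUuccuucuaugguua
The 3p sequences of mmu-mir-379 and mmu-mir-411 differ at 2 of 22 bases, and those of mmu-mir-300 and mmu-mir-381 at 3 of 22. Read counts that were not whole numbers, the trace of reads shared between hairpins, occurred in 5 samples for mmu-mir-379 and mmu-mir-411, in 4 for mmu-mir-376c and mmu-mir-376b, in 3 for mmu-mir-300 and mmu-mir-381 and in 2 for mmu-mir-299a, so these hairpins are less certain than the others. Shared reads that add up to a whole number leave no such trace, so these numbers of samples are lower bounds. The files list hairpins and not arms, so the share of each mature sequence was not analysed here.

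The 10 libraries held 29558751 to 32178088 clean reads, of which 92.6% to 95.2% were annotated and 14.5% to 23.5% were miRNA reads, the highest share being in HFD-F0 replicate 1. The 10 hairpins fixed as markers of the male germ line, which include mmu-mir-34c and mmu-mir-449a, were all detected and summed to 8666 to 17008 RPM. Hairpins typical of other cell types were also present, since the smooth muscle list summed to 15876 to 36525 RPM, the epididymal epithelium list to 3969 to 9463 RPM and the blood and immune list to 1461 to 3117 RPM. Most of the smooth muscle sum was a single hairpin, mmu-mir-143, at 14929 to 35030 RPM. One library stood apart: in CD-F0 replicate 4 the neuron list of 9 hairpins summed to 1329 RPM, against 230 to 322 RPM in the other 9 samples. The sums, the counts of calls and the fold changes of most named hairpins are therefore also given without this library.

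All 45 hairpins were detected, with at least 1 read in some sample. In every sample, reads were found for 35 hairpins, among them all 5 opposite Rtl1 and 26 of the 32 of the miR-379 to miR-410 group, but only 3 of 6 on the Meg3 side. The mean level over the 10 samples reached 1 RPM for 28 hairpins, 10 RPM for 15 and 100 RPM for 4. A hairpin with no read in a sample may have had up to 3 reads, which is 0.0932 to 0.101 RPM in these libraries, and this limit covers counting error only.

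**Figure D1:**
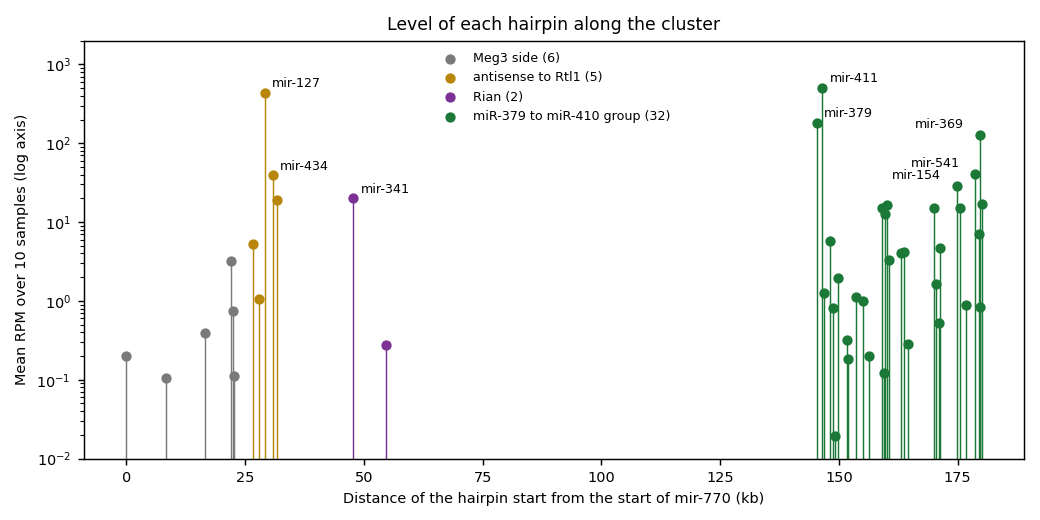
Mean level of each of the 45 hairpins over the 10 samples (RPM, log axis) against the distance of its start from the start of mmu-mir-770 (kb), coloured by position group. High hairpins stand beside low ones in the groups other than the Meg3 side, where the highest is mmu-mir-337 at 3.197 RPM, and mmu-mir-411 and mmu-mir-127, at 510.0 and 437 RPM, lie in different groups.

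The level was concentrated in a few hairpins. The most abundant was mmu-mir-411, with a mean of 510.0 RPM, and mmu-mir-127, opposite Rtl1, followed with 437 RPM. Next were mmu-mir-379 with 181 RPM and mmu-mir-369 with 127.05 RPM. The first pair held 61.2% of the RPM of the cluster, these 4 held 81.2%, and the 12 most abundant held 93.9%. Then came mmu-mir-541 with 41.0, mmu-mir-434 with 39.5, mmu-mir-154 with 28.7, mmu-mir-341 with 20.1, mmu-mir-136 with 18.8, mmu-mir-410 with 17.1, mmu-mir-376a with 16.4 and mmu-mir-376c with 15.3 RPM. The last 5 of these overlapped between samples, so their order is not distinguished by the spread. The miR-379 to miR-410 group gave 65.9% of the cluster RPM, the hairpins opposite Rtl1 32.4%, the Rian pair 1.32% and the Meg3 side 0.307%.

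Both leading hairpins varied between samples, but not in the same ones. In CD-F0 replicates 1 to 5, mmu-mir-411 had 397, 583, 892, 535 and 400.3 RPM, and in HFD-F0 replicates 1 to 5 it had 562, 378.6, 543.8, 408 and 399 RPM. The highest value was that of CD-F0 replicate 3, and the groups overlapped. For mmu-mir-127 the CD-F0 samples had 554, 323, 331, 1010.1 and 391 RPM and the HFD-F0 samples 539, 458, 365, 236 and 166 RPM. Here CD-F0 replicate 4 was highest and HFD-F0 replicates 5 and 4 lowest, and CD-F0 replicate 3, the highest for mmu-mir-411, was among the low ones. Counting error was small beside this spread, since the 95% Wilson interval of a single sample reached at most 1.80% of the value on either side for mmu-mir-411 and 2.79% for mmu-mir-127. In these bulk samples, fewer cells of a type and less RNA per cell cannot be told apart.

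The next pair of hairpins had fewer reads. Between samples mmu-mir-379 ranged from 128.4 to 265 RPM, with its highest value in HFD-F0 replicate 1, and the group means were 182 ± 49.3 in CD-F0 and 181 ± 50.1 RPM in HFD-F0 (SD, n = 5 each). In CD-F0 samples mmu-mir-369 had 105, 121, 126.8, 217 and 129 RPM and in HFD-F0 samples 156, 100.5, 149.6, 80.8 and 85.0 RPM. The 217 RPM of CD-F0 replicate 4 lay apart from its group, and 3 HFD-F0 samples were below all CD-F0 samples.

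**Figure D2:**
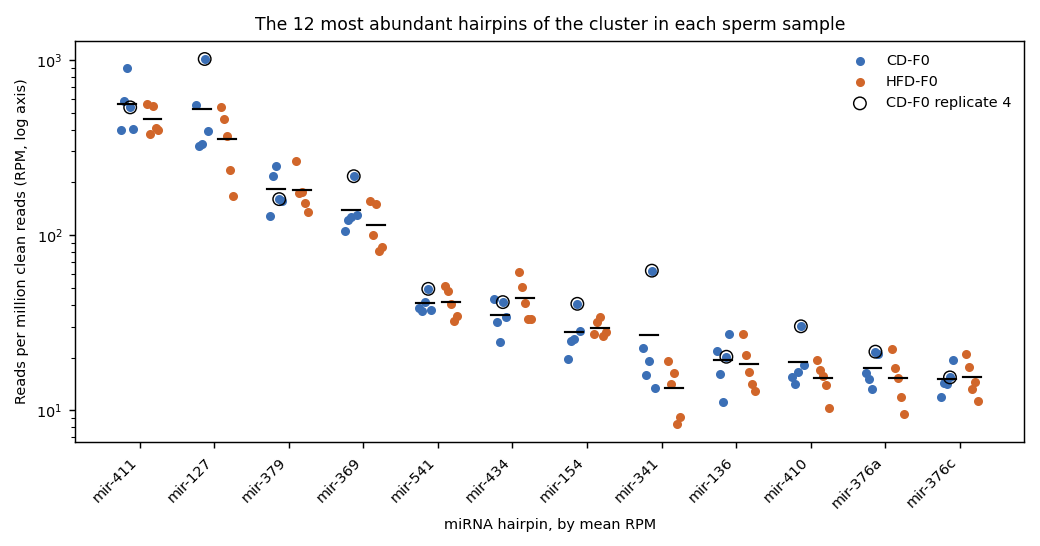
RPM (log axis) of the 12 most abundant hairpins in each of the 5 CD-F0 and 5 HFD-F0 samples, with a bar at each group mean and a ring around CD-F0 replicate 4. The groups overlap for each of the 12 hairpins, and the ringed sample is the highest for mmu-mir-127, mmu-mir-369, mmu-mir-154, mmu-mir-341 and mmu-mir-410.

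Summed over the 45 hairpins, the level was lower on average in HFD-F0 sperm, but the groups overlapped. The sums in CD-F0 replicates 1 to 5 were 1475, 1502, 1844, 2350.3 and 1369 RPM. In HFD-F0 replicates 1 to 5 they were 1891, 1421, 1511, 1105 and 1002 RPM. The mean was 1708 ± 401 RPM in CD-F0 and 1386 ± 353 RPM in HFD-F0 (SD, n = 5 each), a ratio of 0.811. Only HFD-F0 replicates 4 and 5 fell below all CD-F0 samples. Without CD-F0 replicate 4 the CD-F0 mean was 1548 ± 206 RPM (n = 4) and the ratio 0.896. The cluster took 0.608% to 1.53% of the miRNA reads of a sample.

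The groups of hairpins contributed differently to this. For the 5 hairpins opposite Rtl1 the CD-F0 sums were 629, 377, 373, 1082 and 459 RPM and the HFD-F0 sums 635, 533, 428, 287 and 218 RPM, a ratio of means of 0.720, or 0.915 without CD-F0 replicate 4. The miR-379 to miR-410 group had sums of 819.7, 1106, 1449, 1199 and 891 RPM in CD-F0 and 1232, 867, 1061, 806 and 772 RPM in HFD-F0, with a ratio of 0.867, or 0.889 without that library. In this group the highest sample was CD-F0 replicate 3 and not CD-F0 replicate 4. The Rian pair, nearly all of it mmu-mir-341, had a ratio of 0.497, or 0.745 without CD-F0 replicate 4, and the Meg3 side, at 3.39 to 6.68 RPM in all samples, had a ratio of 1.13, or 1.24 without it. The 41 hairpins other than mmu-mir-411, mmu-mir-127, mmu-mir-379 and mmu-mir-369 had a ratio of 0.924, and 1.03 without CD-F0 replicate 4, so their direction rested on that library.

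**Figure D3:**
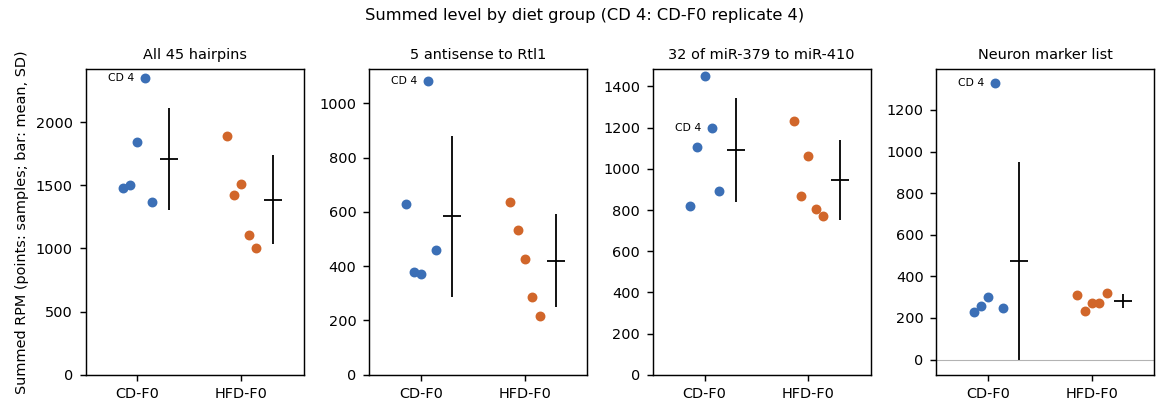
Summed RPM in each sample for the 45 hairpins, the 5 opposite Rtl1, the 32 of the miR-379 to miR-410 group and the neuron marker list of 9 hairpins, with the group mean and SD beside the points. CD-F0 replicate 4 (CD 4) is highest in the first 2 panels and in the neuron panel, where it stands at 1329 RPM and the other 9 samples at 230 to 322 RPM.

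Each hairpin was then compared between the diets in 1 fit over all small RNA features with edgeR's quasi-likelihood test, after removal of features with low counts. Of the 45 hairpins, 36 passed this filter and 9 did not (mmu-mir-770, mmu-mir-673, mmu-mir-665, mmu-mir-370, mmu-mir-758, mmu-mir-494, mmu-mir-679, mmu-mir-667 and mmu-mir-654). With the thresholds of the study, an unadjusted p of at most 0.05 and a log2 fold change of at least 1 in size, 1 of the 36 hairpins was called, mmu-mir-341, lower in HFD-F0, where 3.69% of the 814 features tested and 2.84% of the 529 miRNA features were called. At p of at most 0.05 alone, 3 of 36 hairpins passed, mmu-mir-431, mmu-mir-341 and mmu-mir-382, against 10.2% of all features and 9.64% of miRNA features. All 3 were lower in HFD-F0, as were 4.05% of all features and 4.73% of miRNA features at this p. After Benjamini-Hochberg adjustment over the 814 features, edgeR called 0 of the 36 hairpins at an adjusted p under 0.05, 0.123% of all features and 0% of the miRNA features. In these edgeR results, with both directions together, the share of hairpins that passed either threshold was near or below that of all miRNA features. For the lower direction alone at p of at most 0.05 it was above, 8.33% against 4.73%, from 3 hairpins. DESeq2 also called 0 hairpins after adjustment and had 5 of 36, 13.9%, at an unadjusted p of at most 0.05, beside 12% of all features and 11.5% of miRNA features.

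The direction of the estimates leaned to one side. The log2 fold change was negative for 31 of the 36 hairpins, 86.1%, where 51% of all features and 55.4% of miRNA features were negative. Its median was −0.26 for the 36 hairpins, −0.05 for miRNA features and −0.01 for all features. With the clean reads as library size in place of TMM, which moved the median of all features to 0.09, 27 of the 36 were negative. Without CD-F0 replicate 4, 26 of the 36 were negative, 72.2%, where 52.5% of all features and 57.5% of miRNA features were, and the median was −0.16. In that fit 0 hairpins were called and 1, mmu-mir-431, was at p of at most 0.05, beside 2.66% and 8.1% of all features and 1.66% and 6.84% of the miRNA features. The hairpins share libraries, so their directions are not independent of each other.

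**Figure D4:**
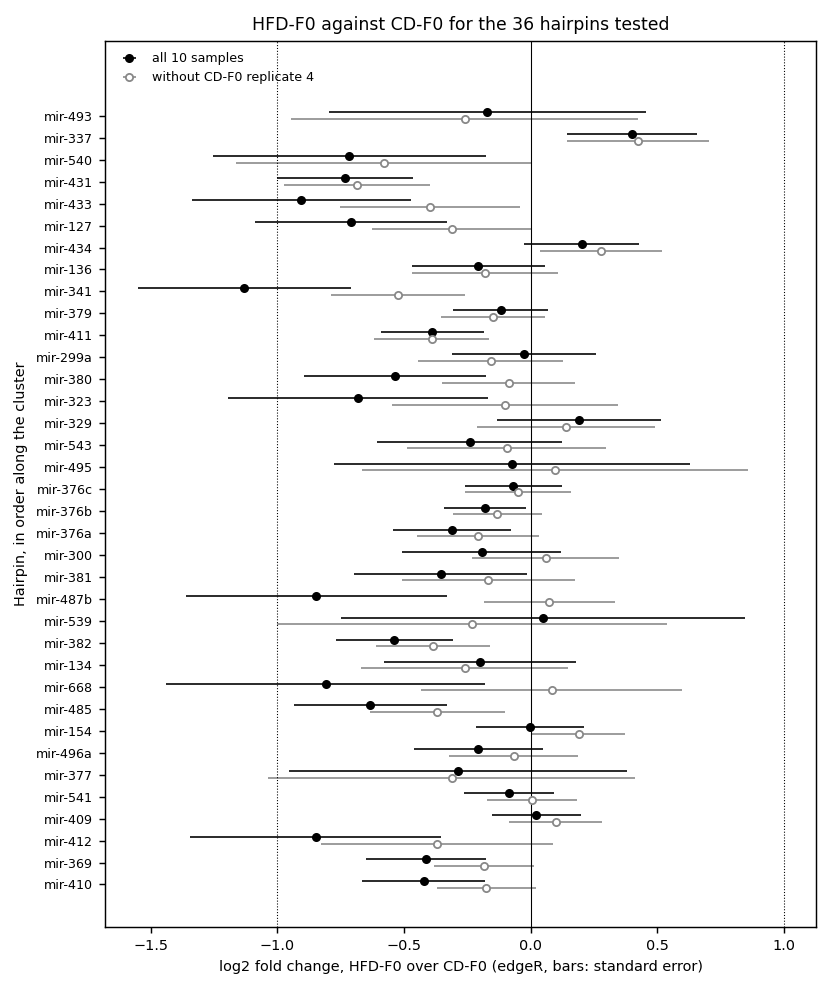
The log2 fold change of HFD-F0 over CD-F0 for each of the 36 hairpins tested, in order along the cluster, with bars of 1 standard error, from all 10 samples (filled) and without CD-F0 replicate 4 (open). Dotted lines stand at −1 and 1. Filled points lie left of 0 for 31 hairpins and open points for 26.

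The hairpin called, mmu-mir-341, comes from an intron of Rian, and no other mature sequence listed for the cluster shares its seeds. In CD-F0 replicates 1 to 5 it had 22.7, 15.99, 19.1, 62.6 and 13.3 RPM, and in HFD-F0 replicates 19.2, 14.2, 16.4, 8.32 and 9.10 RPM. CD-F0 replicate 4 lay far above the other 9 samples, and only HFD-F0 replicates 4 and 5 were below all CD-F0 samples. The log2 fold change was −1.13 ± 0.42 (SE), with an unadjusted p of 0.0198 and an adjusted p of 0.351 by edgeR. Without CD-F0 replicate 4 it was −0.52 ± 0.26, with an unadjusted p of 0.0723 and an adjusted p of 0.674 by edgeR, so the call rested on that library. The exact permutation test of the RPM, two-sided over all assignments of 5 samples, gave p = 0.111.

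Opposite Rtl1, mmu-mir-431 was the hairpin with the smallest unadjusted p. Its RPM in the CD-F0 samples was 8.87, 4.91, 5.55, 6.99 and 5.27, and in the HFD-F0 samples 6.84, 2.81, 4.63, 2.75 and 3.99. All HFD-F0 samples but replicate 1 lay below the lowest CD-F0 sample, and CD-F0 replicate 4 was not the highest of its group. The log2 fold change was −0.73 ± 0.27, with an unadjusted p of 0.0181 and an adjusted p of 0.336 by edgeR, and without CD-F0 replicate 4 it was −0.69 ± 0.29, with an unadjusted p of 0.0355 and an adjusted p of 0.579. With the clean reads as library size it was −0.59, with an edgeR p of 0.0628. The p rose to 0.0572 without CD-F0 replicate 1, the highest sample, and to 0.0546 without HFD-F0 replicate 4, the lowest. The exact permutation test of the RPM gave p = 0.0794, and 0.417 after adjustment over the 15 hairpins named.

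In the miR-379 to miR-410 group, mmu-mir-382, which overlaps an exon of Mirg, had 18.2, 17.2, 12.6, 23.8 and 15.01 RPM in CD-F0 and 18.2, 14.5, 8.67, 12.1 and 11.4 RPM in HFD-F0. CD-F0 replicate 4 was the highest, and 3 HFD-F0 samples were below all CD-F0 samples. The log2 fold change was −0.54 ± 0.23, with an unadjusted p of 0.0388 and an adjusted p of 0.430 by edgeR. The p was above 0.05 without any one of CD-F0 replicates 1 and 4 and HFD-F0 replicates 3, 4 and 5, and without CD-F0 replicate 4 the log2 fold change was −0.39 with an edgeR p of 0.112. It was −0.42 with an edgeR p of 0.110 when the clean reads were used as library size. The exact permutation test of the RPM gave p = 0.111.

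The 4 hairpins with the most reads did not pass either threshold. For mmu-mir-411 the log2 fold change was −0.39 ± 0.20 with all samples and also −0.39 without CD-F0 replicate 4, and the p of 0.0814 rose to 0.110. Other samples moved it more, to −0.19 with an edgeR p of 0.279 without CD-F0 replicate 3 and to −0.49 with an edgeR p of 0.0396 without CD-F0 replicate 5. For mmu-mir-127 it was −0.71 ± 0.38, with an unadjusted p of 0.0850 and an adjusted p of 0.526 by edgeR, and −0.31 without CD-F0 replicate 4. The values for mmu-mir-379 and mmu-mir-369 were −0.12 ± 0.19 and −0.41 ± 0.24, and −0.15 and −0.18 without that library. By the exact permutation test of the RPM, with clean reads as denominator, the p of these 4 hairpins lay between 0.302 and 0.952. None of the 36 hairpins tested had a p of at most 0.05 by it, with 0.00794 the smallest that 5 against 5 samples allow. With miRNA reads as denominator, a setting tried only for the 15 hairpins named, mmu-mir-431, mmu-mir-341, mmu-mir-382 and mmu-mir-410 did before adjustment, as given below.

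Few estimates were positive. The largest was that of mmu-mir-337, on the Meg3 side, which had 2.37, 2.66, 2.35, 2.76 and 3.19 RPM in CD-F0 and 2.81, 4.84, 5.19, 2.85 and 2.94 RPM in HFD-F0. HFD-F0 replicates 2 and 3 were above all CD-F0 samples. Its log2 fold change was 0.40 ± 0.26, with an unadjusted p of 0.147 and an adjusted p of 0.614 by edgeR. Opposite Rtl1, mmu-mir-434 was at 0.20 ± 0.23 and thus had the sign opposite to that of mmu-mir-431, mmu-mir-433 and mmu-mir-127, at −0.73, −0.91 and −0.71. These signs were the same without CD-F0 replicate 4, with 0.28 for mmu-mir-434 and −0.69, −0.40 and −0.31 for the other 3. Of the other abundant hairpins, mmu-mir-410 had −0.42 ± 0.24, mmu-mir-376a −0.31 ± 0.23 and mmu-mir-136 −0.21 ± 0.26, and without CD-F0 replicate 4 the values were −0.17, −0.21 and −0.18. The estimates of mmu-mir-541, mmu-mir-376c and mmu-mir-154 were −0.09, −0.07 and −0.00312, and each turned to above 0 when the clean reads were used as library size.

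The 9 hairpins that were not tested had at most 39 reads in any sample and a mean of 0.0191 to 0.316 RPM. The reads of mmu-mir-370, which lies in an intron of Rian as mmu-mir-341 does, were 28, 5, 6, 26 and 8 in the CD-F0 samples and 0, 0, 0, 7 and 6 in the HFD-F0 samples, so 3 HFD-F0 samples had none and the groups overlapped. For mmu-mir-770, in an exon of Meg3, 39 of its reads were in CD-F0 replicate 4 and at most 6 in each of the other samples.

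How CD-F0 replicate 4 differed was then described over all 36 hairpins. It was the highest of the 10 samples in RPM for 13 of 36 hairpins, 36.1%, and for 11.2% of the 529 miRNA features. HFD-F0 replicate 1, which had the highest miRNA share, was highest for 11 hairpins, 30.6%, and for 36.1% of miRNA features. On the log2 CPM scale, where counts are divided by the TMM-scaled library size, the median difference between CD-F0 replicate 4 and the mean of the other 9 samples was 0.68 over the 36 hairpins and 0.06 over the miRNA features. It was positive for 29 hairpins and above 1 for 13, and the largest were 2.42 for mmu-mir-487b, 2.28 for mmu-mir-668 and 2.19 for mmu-mir-341. Some hairpins did not follow, with −0.05 for mmu-mir-379 and 0.24 for mmu-mir-411, while mmu-mir-127 was at 1.62.

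The neuron list moved in the same library, with each copy of mmu-mir-9, mmu-mir-124 and mmu-mir-128 highest there. Its other hairpin, mmu-mir-137, had 26.1 RPM in CD-F0 replicate 4 and 37.0 RPM in HFD-F0 replicate 4. In CD-F0 replicate 4 the 9 hairpins of mmu-mir-9, mmu-mir-124, mmu-mir-128 and mmu-mir-137 summed to 1329 RPM, and the sums were 230 to 301 RPM in the other CD-F0 samples and 235 to 322 RPM in the HFD-F0 samples, with none of the 9 at 0. The 3 copies of mmu-mir-9, a miRNA of neural cells, share reads and were called lower in HFD-F0, with a log2 fold change of −1.43 for mmu-mir-9-1 (unadjusted p of 0.0407 and adjusted p of 0.430 by edgeR) that was −0.09 without that library. Epithelial, smooth muscle and blood sums were within the range of the other 9 samples in CD-F0 replicate 4, at 4817, 21352 and 1766 RPM. Most single hairpins of the muscle list were lower there than in any other sample. Examples are mmu-mir-145a (359 RPM, lowest other sample 448) and mmu-mir-133a-1 (17.4, 25.4). Of the blood list, mmu-mir-142a (51.2, 87.9), mmu-mir-150 (129, 207), mmu-mir-155 (15.6, 31.1) and mmu-mir-223 (342, 355) were also lowest there. Within the range were mmu-mir-143, mmu-mir-144, mmu-mir-451a and each epithelial hairpin. The part of the hairpins of these lists, or of the cells they mark, in the level of the cluster was not tested.

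Hairpins of the cluster varied together across samples more than miRNAs in general. Over the 630 pairs of the 36 hairpins, the median Pearson correlation of log2 CPM across the 10 samples was 0.287, and over the 139656 pairs of all miRNA features it was 0.0235. The pairs share libraries and hairpins, so these are descriptions. Without CD-F0 replicate 4 the medians were 0.147 and 0.0261, with the library scaling of all 10 samples kept, and after subtraction of the group means the median of the cluster was 0.261. With all samples it was 0.434 within the 5 hairpins opposite Rtl1, 0.261 within the miR-379 to miR-410 group and 0.384 between both groups, that is, no lower between the groups than within the larger one. These 3 medians without CD-F0 replicate 4 were 0.244, 0.131 and 0.219.

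**Figure D5:**
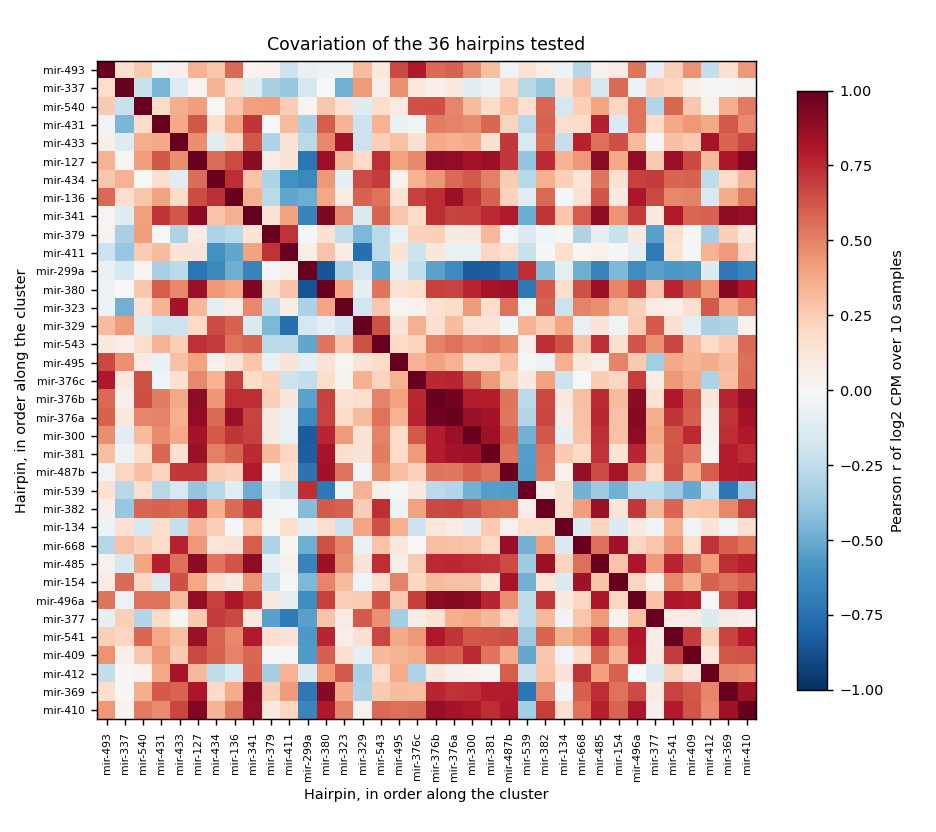
Pearson correlation of log2 CPM over the 10 samples for each pair of the 36 hairpins tested, in order along the cluster (red, positive; blue, negative). Most pairs are red across position groups, the rows of mmu-mir-379 and mmu-mir-411 hold both colours, with 17 and 15 negative values of 35, and those of mmu-mir-299a and mmu-mir-539 are mostly blue.

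In this matrix a large set followed mmu-mir-127, whose median correlation with the other 35 hairpins was 0.559, and for mmu-mir-341, mmu-mir-410, mmu-mir-485 and mmu-mir-376a the medians were 0.583, 0.561, 0.552 and 0.545. On the other side, mmu-mir-411 and mmu-mir-379 had medians of 0.0666 and 0.00630 with the other 35. With CD-F0 replicate 4 left out the medians were 0.510 for mmu-mir-127, 0.341 for mmu-mir-341, 0.391 for mmu-mir-410, 0.380 for mmu-mir-485 and 0.469 for mmu-mir-376a, and −0.126 and 0.0311 for mmu-mir-411 and mmu-mir-379. Lowest were mmu-mir-299a, which follows mmu-mir-411 along the cluster, and mmu-mir-539, with medians of −0.488 and −0.268 and negative values for 32 and 27 of 35. Both were rare, with 23 to 54 reads and 0 to 22 reads a sample, and mmu-mir-299a had its lowest level in CD-F0 replicate 4. Without that library their medians were −0.280 and −0.0830.

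For the most abundant hairpin of the miR-379 to miR-410 group, mmu-mir-411, and the most abundant one before it, mmu-mir-127, the correlation of log2(RPM + 0.1) over the 10 samples was r = 0.117 (permutation p = 0.738) and rho = −0.176 (permutation p = 0.635). Without CD-F0 replicates 3 and 2, farthest from the median of mmu-mir-411, r was 0.470 (exact permutation p = 0.252, n = 8), and without CD-F0 replicate 4 it was 0.0590 (exact permutation p = 0.883, n = 9). A relation was thus not detected, although the samples are too few to bound it closely.

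Each of the 12 most abundant hairpins was also compared with mmu-mir-127 and with mmu-mir-411 on the log2 CPM scale, 21 pairs in all, a family chosen after the values were seen. The highest value was that of mmu-mir-127 with mmu-mir-410, the last hairpin of the cluster, with r = 0.929 (permutation p = 0.00029, adjusted p = 0.00371 over the 21 pairs) and rho = 0.855 (permutation p = 0.00313, adjusted p = 0.0219). It was 0.713 without CD-F0 replicate 4 and HFD-F0 replicate 5, the samples farthest from the median of mmu-mir-127, and 0.867 without CD-F0 replicate 4 alone. With mmu-mir-376a, r was 0.888 and rho 0.855 (permutation p = 0.00053 and 0.00272, adjusted p = 0.00371 and 0.0219), and r was 0.775 without these samples. The pair with mmu-mir-541 had r = 0.864 and rho = 0.927 (permutation p = 0.00151 and 0.00032, adjusted p = 0.00793 and 0.00672) and r = 0.787 without them. For mmu-mir-341 r was 0.906 but rho 0.685 (permutation p = 0.00052 and 0.0353, adjusted p = 0.00371 and 0.124), and r was 0.754 without them. For mmu-mir-369 r was 0.812 (permutation p = 0.00780, adjusted p = 0.0328) with rho = 0.515 (permutation p = 0.134, adjusted p = 0.281), and r fell to 0.375 without them, so this relation rested on those samples. Without CD-F0 replicate 4 alone, the adjusted permutation p of these 5 pairs was 0.0287 with mmu-mir-410, 0.0287 with mmu-mir-376a, 0.0494 with mmu-mir-341, 0.0672 with mmu-mir-541 and 0.190 with mmu-mir-369, so the last 2 were no longer under 0.05. Of the other pairs with mmu-mir-127, none had an adjusted p under 0.05. They were mmu-mir-136 with r = 0.653 (permutation p = 0.0372, adjusted p = 0.112), mmu-mir-434 with 0.559 (permutation p = 0.0916, adjusted p = 0.214), mmu-mir-376c with 0.481 (permutation p = 0.157, adjusted p = 0.299), mmu-mir-154 with 0.384 (permutation p = 0.271, adjusted p = 0.407), mmu-mir-411 with 0.128 (permutation p = 0.701, adjusted p = 0.831) and mmu-mir-379 with 0.0819 (permutation p = 0.824, adjusted p = 0.878). The rho of mmu-mir-136 and mmu-mir-434 was 0.745 and 0.758 (adjusted permutation p = 0.0725 for both). In deviations from the group means, r with mmu-mir-127 was 0.645 for mmu-mir-136, 0.845 for mmu-mir-434, 0.467 for mmu-mir-376c and 0.458 for mmu-mir-154.

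With mmu-mir-411, only its neighbour mmu-mir-379 had an adjusted p under 0.05. Their correlation was r = 0.719 (permutation p = 0.0140, adjusted p = 0.0490) and rho = 0.600 (permutation p = 0.0731, adjusted p = 0.192). Without CD-F0 replicates 3 and 2, which had the highest mmu-mir-411, r was 0.262, so the relation rested on them. Both hairpins had split reads in at least 5 samples. The pair of mmu-mir-411 with mmu-mir-434 had r = −0.603 (permutation p = 0.0608, adjusted p = 0.160) and rho = −0.455 (permutation p = 0.190, adjusted p = 0.355), and r was 0.176 without these samples. For mmu-mir-411 with mmu-mir-136, r was −0.521 (permutation p = 0.117, adjusted p = 0.246). It was −0.738 in deviations from the group means and 0.0513 without these samples. Whether the correlations with mmu-mir-127 differ from those with mmu-mir-411 was not tested.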

How the data were processed

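The authors annotated clean reads of 18–30 nt RNA with SPORTS, which matches them to sets of known RNAs. The RNA was sequenced by BGI on DNBSEQ, and Bowtie was used with 1 mismatch allowed. The submitters' processing notes name Bowtie and mm10, and versions are not given in the sources used here. The authors deposited estimated counts per RNA sub-class and sample, without normalization, in which a read that fits several hairpins is split between them. Adapters with molecular identifiers are described in the methods and an NEB kit in the labels, and whether reads were collapsed is not given in the sources used here, so intervals cover counting error only.

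Counts were rounded to whole numbers and tested with edgeR 4.0.16 (filterByExpr, TMM, quasi-likelihood test, R 4.3.3) over 1470 features, of which 814 passed the filter. Benjamini-Hochberg adjustment was over all features tested. RPM were computed here from the clean reads, and group differences in RPM were tested by exact permutation. Correlations with 10 samples were tested by 100000 resamples. These used log2(RPM + 0.1) for the single comparison of mmu-mir-411 with mmu-mir-127, and log2 CPM with a prior count of 2 for the family of 21 pairs. SciPy 1.17.1 gave the ranks for rho and the normal quantile of the intervals. DESeq2 1.42.0, other scalings, filters and denominators, and leaving out each sample were alternatives. Intervals are Wilson intervals at 95%. No pair of libraries agreed within sampling noise. The code was tested on simulated data.

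The members, marker lists and thresholds were chosen with earlier results of these data known. Named with full values were the 12 hairpins of highest mean RPM, each with p of at most 0.05, and the largest change in either direction, 15 in all.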

Additional observations from a re-analysis of the deposited data

Results flagged for a closer look

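In 7 of the 54 sets of 5 samples examined, 1 sample lay beyond Dixon's 95% critical value of 0.71 for the gap to its neighbour over the range, which chance gives for about 1 set in 20. Of these, 6 were CD-F0 replicate 4, and several share reads, so they are not separate events. Its summed RPM was 63.4 for the Rian pair (next highest CD-F0 sample 23.6), 428 for the 41 hairpins other than mmu-mir-411, mmu-mir-127, mmu-mir-379 and mmu-mir-369 (292), and 1329 for the neuron list (301). Single hairpins of the cluster that lay apart in this sample were mmu-mir-369 at 217 RPM (129), mmu-mir-341 at 62.6 RPM (22.7) and mmu-mir-410 at 30.1 RPM (18.1). The seventh was HFD-F0 replicate 1, where other miRNAs of the locus that are no members summed to 2.70 RPM (1.52).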

How the results depend on the processing

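The ratio of summed RPM (0.738 to 0.896 when single samples were left out), the median log2 fold change (−0.44 to −0.16) and the median correlation (0.149 to 0.371, with the library scaling recomputed in each subset) kept their direction under the alternatives tried. The number of hairpins called, 1, was 0 with clean reads as library size (mmu-mir-341 at −0.99 with an edgeR p of 0.0312), 2 without a filter (mmu-mir-370 added, chosen here after its values were seen) and 0 to 2 when single samples were left out: 0 without CD-F0 replicate 4, and 2 without CD-F0 replicate 1, 2 or 3 or HFD-F0 replicate 2. With the replicate number as a block it was 0, with 2 at p of at most 0.05. Shares over all features are given here only for the main fit, the fit without CD-F0 replicate 4 and DESeq2. The counts from the other fits have no such share beside them, so they do not show whether the hairpins differ from other features. Same-numbered samples correlated at 0.336, −0.0873, 0.246, −0.191 and −0.137 in their deviations from the group means. Of these, 2 of 5 correlated best with their own number, and so few values do not decide whether the numbers pair the samples. DESeq2 put 5 hairpins (13.9%, against 11.5% of miRNA features) at an unadjusted p of at most 0.05 and edgeR 3 (8.33%, against 9.64%). Detection was 28 hairpins with at least 10 reads in every sample and 28 with at least 1 RPM on average. The correlation of mmu-mir-411 with mmu-mir-127 changed sign in deviations from group means (−0.0202) and ranged from −0.0634 to 0.333 when single samples were left out. In the family of 21 pairs, the sign changed for mmu-mir-127 with mmu-mir-411 (−0.0268 without CD-F0 replicate 4, −0.140 in deviations), with mmu-mir-379 (−0.0172 in deviations) and with mmu-mir-154 (−0.260 without CD-F0 replicate 4), and for mmu-mir-411 with mmu-mir-154 (0.0107) and mmu-mir-410 (−0.0462) in deviations. Log2 fold changes near 0 changed sign with clean reads as library size for mmu-mir-541 (0.0227), mmu-mir-154 (0.0880) and mmu-mir-376c (0.0396), for mmu-mir-154 also with miRNA features only (0.0590) and with the block (0.0279), and when single samples were left out for mmu-mir-541 (−0.18 to 0.00475), mmu-mir-154 (−0.0926 to 0.189) and mmu-mir-376c (−0.167 to 0.0343). The RPM difference changed sign with miRNA reads as denominator for mmu-mir-541, mmu-mir-154 and mmu-mir-376c (exact permutation p = 0.492, 0.913 and 0.444), and when single samples were left out for mmu-mir-379 (p = 0.421 to 1.0), mmu-mir-541 (0.524 to 1.0), mmu-mir-154 (0.0794 to 0.952), mmu-mir-136 (0.381 to 0.992) and mmu-mir-376c (0.484 to 0.952). With miRNA reads as denominator, the unadjusted exact permutation p of mmu-mir-431, mmu-mir-341, mmu-mir-382 and mmu-mir-410 was 0.0159, 0.0238, 0.0317 and 0.0397. Only the 15 hairpins named were tested with this denominator, so no share over all miRNA features stands beside these values. The causes were not tested.

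Diet, and whatever differed between the mice or preparations of the groups, cannot be told apart with 5 samples each. Hairpins below about 1 RPM rest on few reads, and arms and fragment lengths were not analysed here.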

Other observations

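Of 12 further miRNAs of the locus that are not among the 45 hairpins, 10 had reads, and 2 passed the filter, mmu-mir-1193 and mmu-mir-666, which are named here after their values were seen. In CD-F0 replicates 1 to 5 mmu-mir-1193 had 0.296, 0.222, 0.548, 0.413 and 0.447 RPM, and in HFD-F0 replicates 0.906, 0.749, 0.901, 0.438 and 0.71045 RPM. HFD-F0 samples other than replicate 4 were above all CD-F0 samples, with at most 29 reads in a sample. Its log2 fold change was 0.83 ± 0.35, with an unadjusted p of 0.0363 and an adjusted p of 0.430 by edgeR, and 0.87 with an edgeR p of 0.0532 without CD-F0 replicate 4. For mmu-mir-666 it was −0.64 ± 0.82 (unadjusted p of 0.450 and adjusted p of 0.898 by edgeR).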
